A study of Mus musculus with 2 samples.

Results

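The barcodes described here are those in which mitochondrial transcripts made up most of the counted RNA. They were chosen by 1 rule, that more than 50% of a barcode's unique molecular identifiers (UMIs, which mark single captured RNA molecules) fell on genes whose symbol starts with mt-. Of 21806 barcodes in the deposited matrix, 12884 (59.1%) met it. A further 4531 barcodes lay between 20 and 50%, and the 4391 barcodes at 20% or less served as the reference. Since the mitochondrial share chose the members, that share, the mitochondrial counts and the depth tied to them are given as description only.

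The study used mouse small intestinal organoids, epithelial structures grown in culture, in a control group and a melatonin-treated group. Cells of 3 independent lines were pooled per group on culture day 3, and droplet libraries were made with 10x Genomics 3′ chemistry. The labels give no strain, age, sex or melatonin dose in words, and the pools do not keep the lines apart. The deposited files of both groups were byte for byte the same, so they are 1 sample in which each barcode carries suffix 1 or suffix 2, here set 1 and set 2. No source used here says which suffix is which group, and no comparison of melatonin with control was made. Members came from both sets, 7500 from set 1 and 5384 from set 2.

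Mitochondria keep their own small genome, which encodes subunits of the respiratory chain and of ATP synthase, and their transcripts lie behind a double membrane apart from the cytosol and the nucleus. In single-cell work a high mitochondrial share is commonly used to set aside barcodes of damaged or stressed cells, although cell types rich in mitochondria can reach high shares too. Nuclear RNA such as Malat1, a long noncoding RNA held in nuclear speckles and the marker given for these barcodes, is another compartment that can be over-represented in poor libraries. Ribosomal RNA carries no poly(A) tail and is not the target of a library primed with oligo(dT), so transcripts that overlap ribosomal RNA repeats are usually read as unintended capture. Replication-dependent histone mRNAs also end without a poly(A) tail in normal cells.

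Because capture in this assay starts from A-rich sequence, the stretch of 20 bases with most adenines is shown for Malat1 and for the pair of ribosomal RNA-like transcripts that the results below turn on. Sequences are from the longest GENCODE M21 transcript of each gene, read 5′ to 3′, leaving out the final 100 bases, with adenines in capitals.
Malat1, bases 6674 to 6693 of the transcript: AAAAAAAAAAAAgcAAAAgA
Gm42418, bases 210 to 229 of the transcript: AAAAAAttAgAgtgttcAAA
Gm26917, bases 2144 to 2163 of the transcript: cAAAgggAAAgAggctAgcA
Malat1 holds 17 adenines in its window, a number reached by 12.4% of genes with a transcript. Gm42418 holds 11, reached by 90.1%, and Gm26917 holds 9, reached by 99.1%. Most genes therefore have a window at least as rich in adenine as these ribosomal RNA-like transcripts. Only the strand of the annotated transcript was scanned, and where capture of these transcripts started was not tested.

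Members held nearly as many mitochondrial molecules as the reference barcodes and far fewer of everything else. Their median was 2267 mitochondrial UMIs against 2621 in the reference, while the median of non-mitochondrial UMIs was 831 against 24423. The reference median was thus 1.16 times the member median for mitochondrial UMIs and 29.4 times for the rest. A member had a median of 472 genes detected, and 7456 members (57.9%) had fewer than 500, against a median of 4581 genes in the reference. The median mitochondrial share of members was 71.2%, at 68.4% in set 1 and 76.6% in set 2, with a maximum of 98.0%. Together the members held 26.0% of all UMIs, 62.3% of the mitochondrial ones and 10.6% of the others. At the threshold itself there was no gap: the 212 barcodes between 49 and 50% had a median of 2270 non-mitochondrial UMIs and the 213 between 50 and 51% had 2138. Why these barcodes held so little other RNA was not tested. Among all barcodes, 29 barcode sequences occurred with both suffixes, and 35 of the barcodes involved were members. Doublets were not called.

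**Figure D1:**
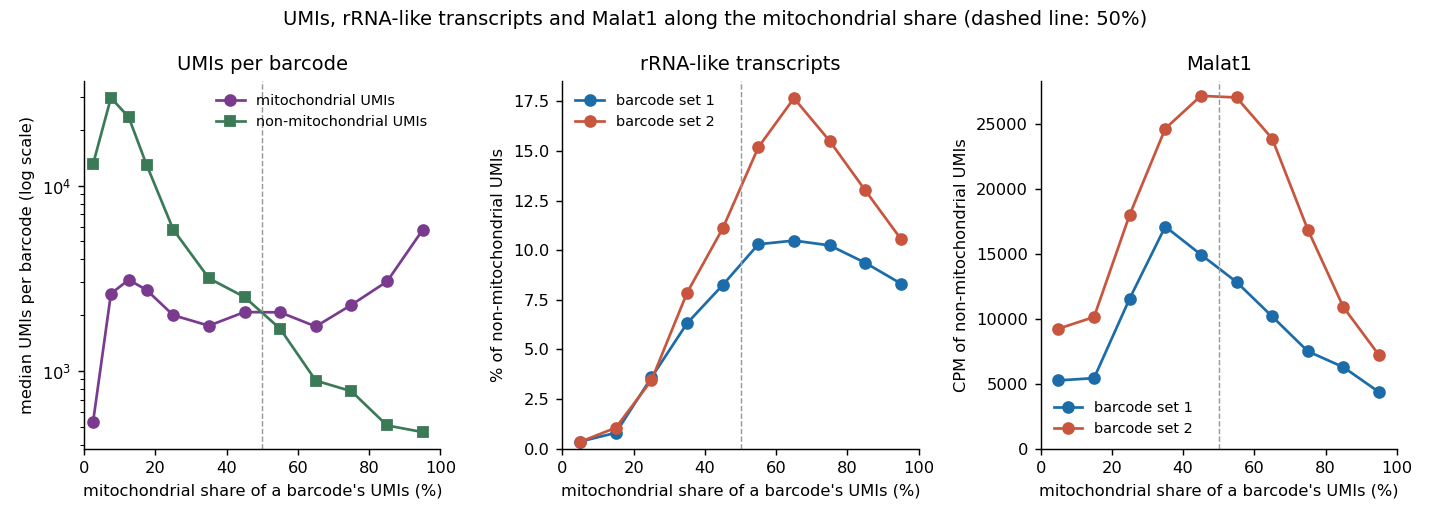
Median mitochondrial and non-mitochondrial UMIs per barcode (log scale), the ribosomal RNA-like share of non-mitochondrial UMIs and Malat1 in counts per 1000000 non-mitochondrial UMIs, against the mitochondrial share of the barcode in bins. The dashed line marks 50%; to the right of it the ribosomal RNA-like share goes from 12.3% at 50 to 60% to 9.98% above 90%, in set 2 from a highest value of 17.7% at 60 to 70% to 10.6%, and Malat1 is lower toward the right in both barcode sets.

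The mitochondrial RNA of members had nearly the same make-up as that of the reference. The ATP synthase subunit mt-Atp6 took 22.3% of mitochondrial UMIs in members and 20.8% in the reference. The cytochrome c oxidase subunits mt-Co3 and mt-Co2 took 18.5% against 17.8% and 15.8% against 15.4%. Somewhat lower in members were mt-Co1, at 12.5% against 13.9%, and mt-Nd1 of complex I, at 6.81% against 7.94%. The widest ratio belonged to mt-Nd6, the only protein gene of the light strand, at 0.074% against 0.120% (log2 ratio -0.70). In set 1 it went from 0.135% in the reference to 0.074% in members, and in set 2 from 0.103% to 0.074%. Its value is uncertain, because the strand setting of the counting is not given in the sources used here and a gene overlapping on the other strand could share its reads.

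For all other genes, UMIs were summed over the barcodes of a group and scaled to counts per 1000000 non-mitochondrial UMIs (CPM), and members were set over the reference as log2 of CPM plus 1. The matrix pools both groups with no map from barcodes to groups and so counts as 1 sample, and barcodes are not replicates, so no test was run; intervals are 95% exact Poisson intervals of the summed UMIs and cover counting error only. Of 15845 genes with at least 10 UMIs over both groups, 697 (4.40%) were at least 2-fold higher in members and 222 (1.40%) at least 2-fold lower. With nuclear and ribosomal RNA-like transcripts left out of the denominator, which takes the median of all genes from 0.08 to 0.22, these became 1229 and 188. The balance went the other way, to 80 higher and 470 lower, as the mean of each barcode's own CPM. With set 1 alone the counts were 493 and 217, and with set 2 alone 1528 and 353. Of the 697, 695 lay on the same side in both sets, as did 218 of the 222. These genes were called on the sum of both sets, so this agreement was largely fixed by the call and is not a replication. Across 8032 genes at 10 CPM or more, the ratios of the sets had a Spearman rho of 0.856, a description over genes that share the same pools.

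Transcripts that overlap ribosomal RNA were the most over-represented. Gm26917 reached 43052 CPM (interval 42945 to 43160) in members and 1326 CPM (1319 to 1333) in the reference, a log2 ratio of 5.02. By set it was at 32260 against 1297 CPM in set 1 and at 61330 against 1361 CPM in set 2. Gm42418 was at 71269 against 3790 CPM (log2 ratio 4.23), AY036118 at 3454 against 194 CPM (4.15) and Lars2, which encodes the mitochondrial leucyl-tRNA synthetase, at 3496 against 154 CPM (4.49). Both sets showed each of these on the same side, with no ratio under 4 in either. All 923 bases of AY036118 lie within the reverse complement of the 1831-base Gm42418, so counts of that pair are uncertain without knowledge of the strand setting. Of the 6 genes in the ribosomal RNA-like list, 5 were at least 2-fold higher, against 4.40% of all genes; Cmss1, the sixth, was at 26.1 against 33.7 CPM. The list took 12.1% of the non-mitochondrial UMIs of members and 0.55% of those of the reference.

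Per barcode, the means of these transcripts differed far less between the 2 groups than their CPM did. A member held a mean of 135 UMIs of the ribosomal RNA-like list and a reference barcode 128. For Gm42418 the means were 79.6 and 88.0 UMIs, for Lars2 3.90 and 3.58, and for Gm26917 48.1 and 30.8. Cytosolic ribosomal protein mRNAs, by contrast, had a mean of 287 UMIs in a member and 7730 in a reference barcode. Barcodes at 20 to 50% held more than either, with means of 280 UMIs of the ribosomal RNA-like list, 160 of Gm42418 and 107 of Gm26917. Among members the list mean went from 246 UMIs at 50 to 60% mitochondrial to 97.7 at 70 to 80% and 56.7 above 90%, while mean mitochondrial UMIs went from 2442 to 2494 and 7167.

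**Figure D2:**
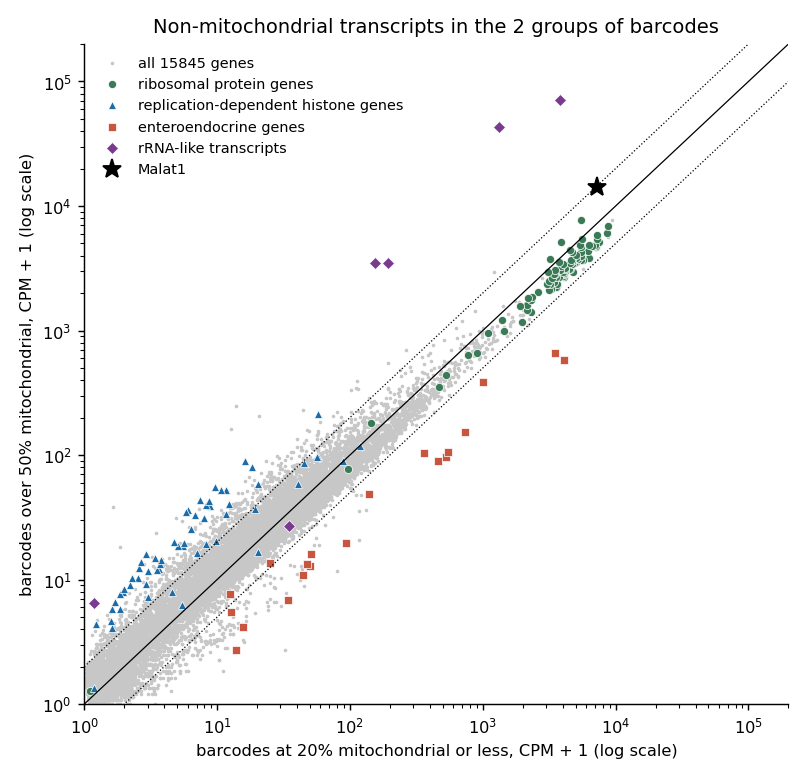
Each point is 1 of 15845 genes, with CPM plus 1 in the reference on the x axis and in members on the y axis, both log scales; the solid line marks equal levels and dotted lines mark 2-fold. Of the ribosomal RNA-like transcripts 5 of 6 (all but Cmss1), and most histone genes, lie above the upper dotted line, 18 of 20 enteroendocrine genes below the lower one, and ribosomal protein genes just under the line of equality.

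Malat1 was higher in members, at 14223 CPM (14161 to 14285) against 7253 CPM (7237 to 7270), a log2 ratio of 0.97. In set 1 the levels were 10026 and 5330 CPM and in set 2 21331 and 9565 CPM, ratios of 0.91 and 1.16. Counted per barcode it was scarcer in members, with a mean of 15.9 UMIs against 168. Of 10 nuclear long noncoding RNAs, 2 passed 2-fold upwards and none downwards, against 4.40% and 1.40% of all genes, with a list median of 0.47. Those were Xist, which coats the inactive X chromosome, at 2928 against 1209 CPM, and Ftx, a regulator of Xist, at 8.97 against 2.64 CPM. Neat1, the scaffold of paraspeckles, had a ratio of 0.35. Barcodes at 20 to 50% held more Malat1 than members, at 18238 CPM, and their nuclear list had a median of 1.03 over the reference. As the mean of each barcode's own CPM, the log2 ratio of Malat1 in members over the reference was 0.006.

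Replication-dependent histone mRNAs were over-represented as a family. Of 63 genes in the list, 59 passed the filter on low counts; 48 of them were at least 2-fold higher, against 4.40% of all genes, none was 2-fold lower and the median log2 ratio was 1.87, against 0.08 for all genes tested. The linker histone gene Hist1h1e was at 212 against 56.9 CPM (log2 ratio 1.88), Hist1h2bj at 88.5 against 15.3 CPM (2.45) and Hist2h2bb at 54.4 against 8.65 CPM (2.52). The same held in both sets, with medians of 1.53 and 2.25. Genes of the cell cycle that end in poly(A) did not show this: the S-phase list had a median of -0.14 and the G2/M list one of -0.23, and none of their 17 and 18 genes passed 2-fold. Other genes far up by the naming rule were AL732506.1 (log2 ratio 4.17), the long noncoding Gm26870 (3.68) and Snhg20 (2.38), Ccnb1ip1, a ubiquitin ligase of meiotic crossing-over (3.31), Clec2d, a C-type lectin (1.96), and Nr1i3, the xenobiotic receptor CAR (1.95).

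Enteroendocrine transcripts were the most under-represented in the summed counts, though not in the median barcode. These hormone cells are a rare lineage of the gut epithelium, and their genes lead the reference through a minority of barcodes. Of 20 listed genes, 18 were at least 2-fold lower in members, against 1.40% of all genes, and the median log2 ratio was -2.0. The hormone gene Cck was at 577 CPM (565 to 590) against 4103 CPM (4091 to 4116), a ratio of -2.83; by set it was at 467 against 2425 CPM and 764 against 6122 CPM. The granule protein gene Chgb was at 655 against 3468 CPM (-2.40), Chga at 94.6 against 526 CPM (-2.46), Gcg, which encodes proglucagon, at 105 against 546 CPM (-2.37), and Tph1, the enzyme that starts serotonin synthesis, at 18.6 against 92.2 CPM (-2.25). Sst, the somatostatin gene, had a ratio of 3.17 in set 1 and -2.44 in set 2, but 1 reference barcode held 4850 of its 5087 reference UMIs. The remaining lower genes by the naming rule included Vim, an intermediate filament gene, at 10.7 against 79.4 CPM, S100a6 at 35.5 against 131 CPM and Afp at 34.5 against 116 CPM.

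The enteroendocrine counts left in members were spread thinly. The 129 members with most of them (1% of members) held 14.5% of the list's UMIs, whereas the top 1% of reference barcodes held 26.4%. A member had a median of 2 UMIs of the list and 195 members (1.51%) had 10 or more, against 894 reference barcodes (20.4%), which were far deeper. As a share of a barcode's own non-mitochondrial UMIs, the median went the other way, at 0.214% in members and 0.0204% in the reference. It was 0.193% against 0.0186% in set 1 and 0.238% against 0.0222% in set 2.

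The mRNAs of the translation and energy machinery were moderately lower in members in the counts over all depths, and none passed 2-fold. All but 5 of 83 cytosolic ribosomal protein genes tested had a ratio below 0, with a list median of -0.40. Rpl10 was at 1177 against 1989 CPM, whereas Rpsa, at 7745 against 5480 CPM, and Rpl36, at 5151 against 3901 CPM, lay above. Nuclear-encoded subunits of oxidative phosphorylation, the partners of the mitochondrial transcripts in the same complexes, had a median of -0.33 with 71 of 82 below 0; Cox5a was at 501 against 810 CPM. Mitochondrial ribosomal protein genes had a median of -0.34 with 77 of 78 below 0, and abundant cytosolic mRNAs one of -0.40. For comparison, all genes tested had a median of 0.08. The 1606 genes with the shortest transcripts had one of -0.30, with quartiles of -0.48 and -0.07. Leaving nuclear and ribosomal RNA-like transcripts out of the denominator raised the ratios by a median of 0.18. Genes that copy and process mitochondrial DNA and RNA had a median of 0.32, with 1 of 18 past 2-fold upwards, against 4.40% of all genes: Polg, the mitochondrial DNA polymerase, at 31.8 against 14.7 CPM. At 500 to 5000 UMIs that median was 0.01 and no gene of the list passed 2-fold. The lower medians also shrank or turned there. They were -0.07 for cytosolic ribosomal proteins, 0.13 for oxidative phosphorylation, 0.04 for mitochondrial ribosomal proteins and -0.03 for abundant cytosolic mRNAs.

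The remaining non-mitochondrial RNA was that of intestinal epithelium. The epithelial list had a median of -0.10 with no gene past 2-fold: Epcam was at 1093 against 1285 CPM, Krt8 at 1221 against 1442 CPM and Krt18 at 940 against 796 CPM. Enterocyte genes went both ways, with Fabp1, the fatty acid carrier of absorptive cells, at 1097 against 2201 CPM and the apolipoprotein gene Apoa1 at 286 against 138 CPM; the list median was 0.37. At 500 to 5000 UMIs Fabp1 turned, to 1018 against 887 CPM. Of 11 stem cell genes tested, Rnf43, which restrains Wnt signalling, passed 2-fold upwards, at 56.1 against 19.9 CPM, against 4.40% of all genes, and Lgr5 was at 113 against 98.3 CPM. At 500 to 5000 UMIs no gene of the stem cell list passed 2-fold. Goblet cell genes had a median of 0.67 in set 1 and of -0.52 in set 2, and at 500 to 5000 UMIs the sets turned round, to -0.29 and 0.97. Of 13 genes of the revival list, 4 were 2-fold lower, against 1.40% of all genes: S100a6, Ly6a, Anxa1 and Msln. Few reference barcodes carried most of these counts: the top 1% held 87.3% of the reference UMIs of S100a6, 94.9% of Anxa1 and 69.0% of Ly6a. The median of the revival list was -0.68, and -0.15 as the mean of each barcode's own CPM. Its median was -0.14 in set 1 and -1.03 in set 2, and at the matched depth of 500 to 5000 UMIs -0.45 and 0.31. Markers of most other cells were near 0: the immune list summed to 0.973 against 1.06 CPM with Ptprc at 0 UMIs in both groups, the tuft list to 4.45 against 5.48 CPM, and the erythroid list to 0.139 against 0.0589 CPM with Hbb-bs at 0. The mesenchymal and endothelial list summed to 14.5 against 84.2 CPM, of which Vim made 10.7 and 79.4 CPM and Pecam1 3.27 and 4.58 CPM.

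Depth moved with most of these differences. Of the reference barcodes, 761 (17.3%) had 500 to 5000 non-mitochondrial UMIs, the range that held 10275 members (79.8%). Their median was 1218 against 914 in members, and their median mitochondrial share 10.8%. Against these shallow reference barcodes, 380 of 12828 genes tested (2.96%) were 2-fold higher in members and 426 (3.32%) 2-fold lower. Among the 2981 genes at 50 CPM or more in either group, 1 was higher, the uroguanylin gene Guca2b, and 23 were lower. That gene stood at 113 against 51.6 CPM (log2 ratio 1.11) and was chosen after its values were seen.

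At 500 to 5000 UMIs, called matched depth here, the over-representation of Malat1 turned in the pooled counts. Depth and set still differed within this range. Barcodes of 2000 to 5000 UMIs held 636625 of 1259599 non-mitochondrial UMIs in the reference and 4392643 of 12890619 in members. Set 1 gave 449 of the 761 reference barcodes and 7374 of the 10275 members. The part of this in the ratios was not tested. Malat1 stood at 13953 CPM in members and 17827 CPM in the reference, a log2 ratio of -0.35, made of -0.63 in set 1 and 0.01 in set 2. Xist was at 3029 against 3038 CPM, a ratio of -0.25 in set 1 and 0.47 in set 2. Gm26917 was at 45879 against 46356 CPM (-0.01), with -0.27 in set 1 and 0.33 in set 2, while Gm42418 stayed slightly higher, at 71788 against 53494 CPM (0.42), as did Lars2 (0.55) and AY036118 (0.52). Of the other genes named as higher, Snhg20 (0.52), Gm26870 (0.73) and Nr1i3 (0.98) had ratios above 0 in both sets, although that of Gm26870 was 0.06 in set 1 and 1.87 in set 2. The sets went opposite ways for Ccnb1ip1 (0.09 pooled, -0.39 in set 1 and 0.65 in set 2), AL732506.1 (0.18, -0.21 and 0.71) and Clec2d (0.31, -0.04 and 0.85). The histone list had a median of -0.45, with no gene of 58 past 2-fold upwards and 7 past it downwards, against 2.96% and 3.32% of all genes. The list medians were -0.07 for cytosolic ribosomal proteins, 0.13 for oxidative phosphorylation and 0.04 for mitochondrial ribosomal proteins. By set, ribosomal proteins were at 0.04 in set 1 and -0.50 in set 2, and oxidative phosphorylation genes at 0.22 and -0.17. Rpl36 turned, to 5113 against 5907 CPM, while Rpsa stayed higher, at 7797 against 6231 CPM. The G2/M and S-phase lists changed sign, to 0.26 and 0.16. Shallow reference barcodes, despite their low mitochondrial share, thus held these transcripts at levels like those of members: the ribosomal RNA-like list took 10.5% of their non-mitochondrial UMIs against 12.5% in members, and the histone list 0.26% against 0.20%.

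**Figure D3:**
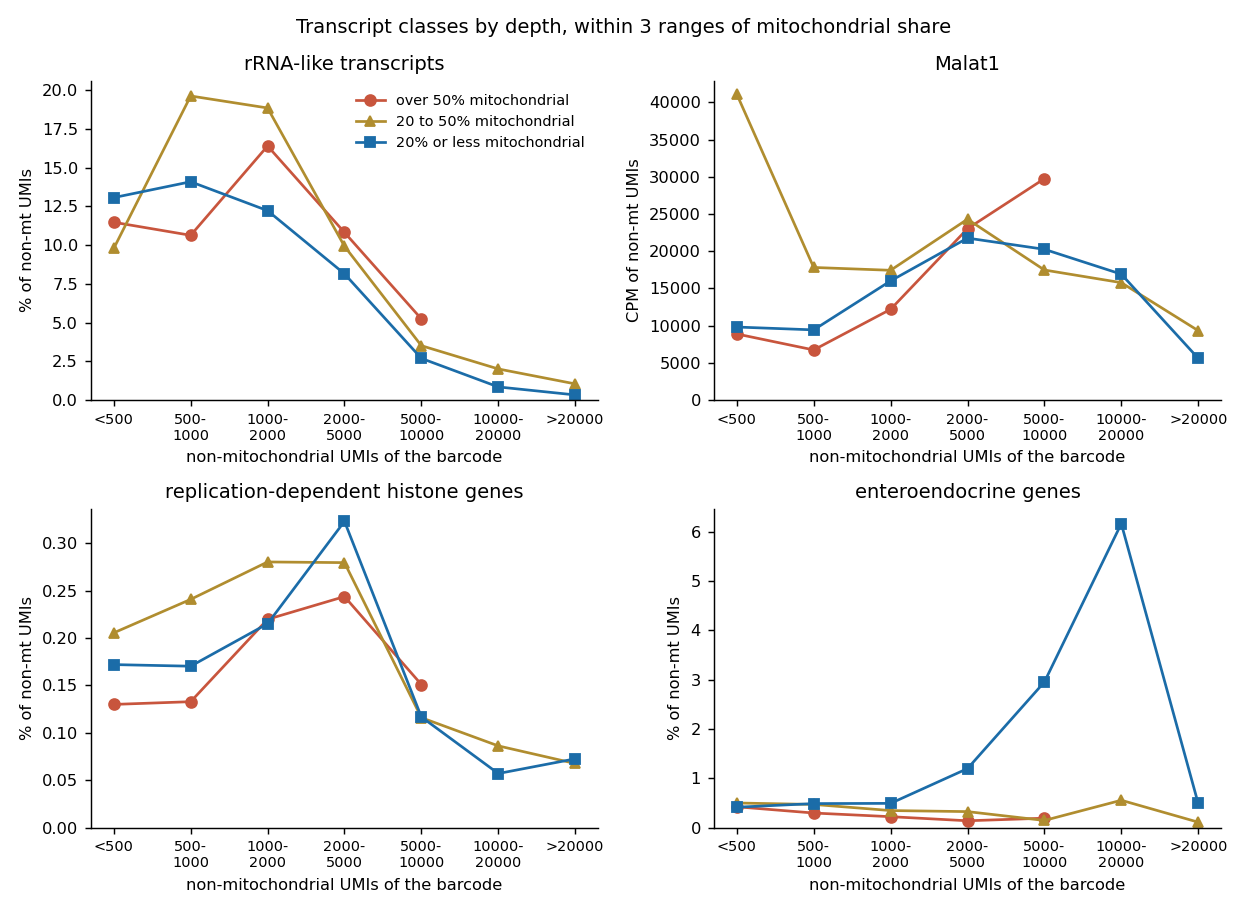
Share of non-mitochondrial UMIs, or CPM for Malat1, against the number of non-mitochondrial UMIs of a barcode in 7 ranges; lines join the ranges within members, barcodes at 20 to 50% and the reference. For ribosomal RNA-like and histone transcripts the lines that reach beyond 10000 UMIs are lower there than below 5000 UMIs, and for enteroendocrine genes the reference stands apart from 2000 to 20000 UMIs; the first point of the 20 to 50% line rests on 16 barcodes.

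The levels in narrow ranges of depth were as follows. At 500 to 1000 non-mitochondrial UMIs the ribosomal RNA-like share was 10.6% in 5881 members and 14.1% in 266 reference barcodes, at 1000 to 2000 UMIs it was 16.4% and 12.2%, and at 2000 to 5000 UMIs it was 10.8% in 1525 members and 8.15% in 189 reference barcodes. At 5000 to 10000 UMIs it was 5.23% in 92 members and 2.68% in 206 reference barcodes. In reference barcodes of over 20000 UMIs it was 0.32%. Malat1 was at 6717 CPM in members and 9417 CPM in the reference at 500 to 1000 UMIs, at 12181 and 16003 CPM at 1000 to 2000 UMIs, at 23021 and 21757 CPM at 2000 to 5000 UMIs, and at 29747 and 20249 CPM at 5000 to 10000 UMIs. At 2000 to 5000 UMIs the sets went opposite ways, at 16407 against 18486 CPM in set 1 and 31187 against 27192 CPM in set 2. In the reference it stood at 5596 CPM beyond 20000 UMIs. The sets went opposite ways at 500 to 1000 UMIs: the ribosomal RNA-like share was 8.94% in members and 12.3% in the reference in set 1, and 17.6% and 15.8% in set 2. The lowest depth differed between sets, as reference barcodes had at least 833 non-mitochondrial UMIs in set 1 and 372 in set 2. Members of set 1 had a lower quartile of 770, so the groups of set 1 were not alike in depth in this range. Members of set 2 also held more Malat1 than members of set 1 at 500 to 1000 UMIs, 9642 against 6001 CPM.

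Enteroendocrine genes were lower in members at matched depth too. Of 20 genes tested, 17 were at least 2-fold lower in members, against 3.32% of all genes, with a median of -1.75 (-0.94 in set 1 and -2.02 in set 2). Chgb was at 613 against 2771 CPM (-2.18) and Cck at 539 against 2483 CPM (-2.20). Of the other genes named as lower, Vim had a ratio of -1.54, with -1.89 in set 1 and -0.16 in set 2. Afp had one of -1.50, with -1.81 in set 1 and 0.95 in set 2, and S100a6 one of -0.21, with -0.45 and 0.31. Ghrl, the ghrelin gene, went the other way, at 98.4 against 61.1 CPM (0.68). The list's share was 0.219% of non-mitochondrial UMIs in members and 0.847% in the reference. A few barcodes carried much of this: the 8 reference barcodes with most of these UMIs held 42.7% of them, and without them the share was 0.497%, against 0.192% in members without their top 103. The median barcode had 2 such UMIs in both groups. Below 500 UMIs the shares were 0.42% and 0.41%, and at 2000 to 5000 UMIs they were 0.14% and 1.20%.

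**Figure D4:**
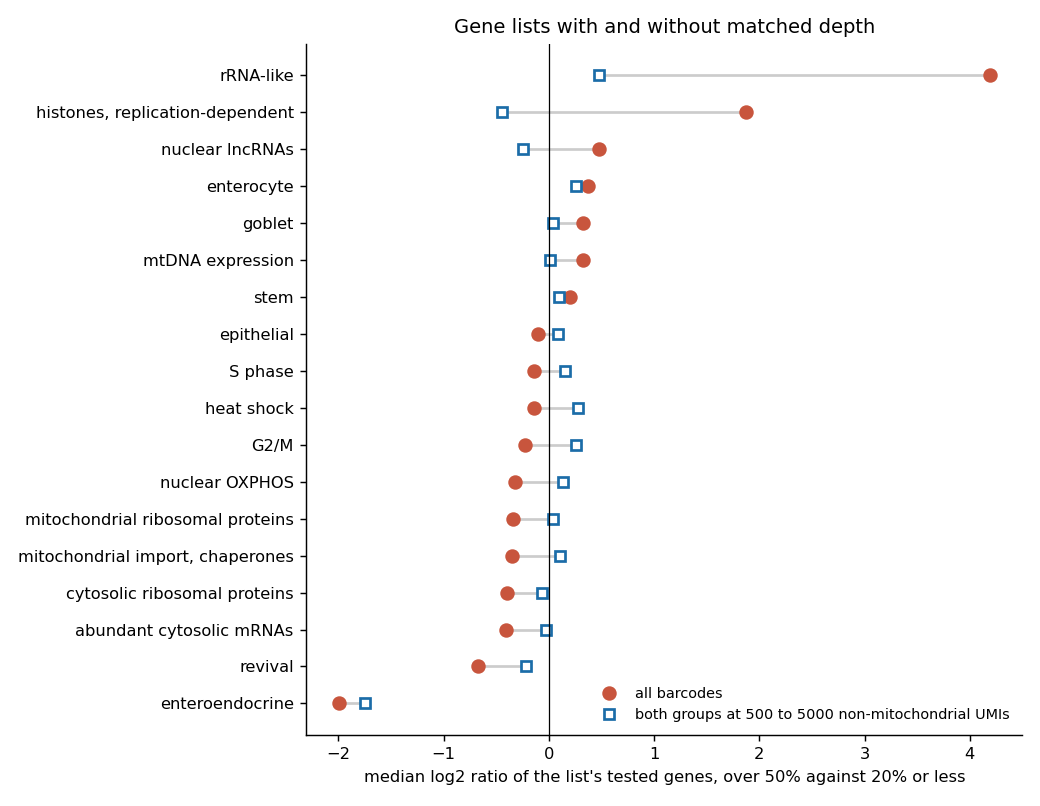
Median log2 ratio of members over the reference for the tested genes of 18 lists; filled circles use all barcodes and open squares only barcodes with 500 to 5000 non-mitochondrial UMIs. The enteroendocrine median stays near -2 (-2.0 and -1.75), while the ribosomal RNA-like median goes from 4.19 to 0.47 and the histone median from 1.87 to -0.45.

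Transcript length went with the ratio across genes. Genes at a mean of 10 CPM or more (8029 with a GENCODE M21 transcript) were split into 5 equal bins by the length of their longest transcript. The bin of the shortest had a median log2 ratio of -0.30 and that of the longest one of 0.40, with -0.11, 0.07 and 0.21 between them. Spearman's rho across genes was 0.49 for length, 0.43 for the number of exons, 0.13 for GC content and 0.09 for the adenine-rich window; genes are not independent replicates, and all points share the same libraries. The share of genes 2-fold higher was 2.74% in the shortest bin and 9.90% in the longest. This relation also went with depth. Within the reference, barcodes of 500 to 5000 UMIs over those of more than 5000 gave medians of -0.34 in the shortest bin and 0.46 in the longest. With both groups at 500 to 5000 UMIs, the medians of members over reference were 0.04 and -0.01, and rho was -0.05; by set the longest bin was at -0.13 in set 1 and 0.23 in set 2.

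**Figure D5:**
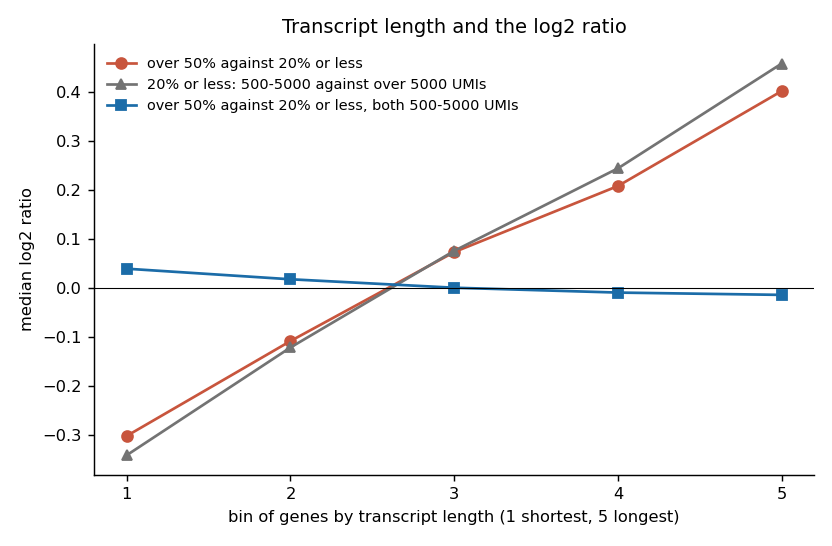
Median log2 ratio of genes in 5 bins by transcript length, for members over the whole reference, for shallow over deep reference barcodes, and for members over reference with both at 500 to 5000 non-mitochondrial UMIs (matched depth). The first and second lines run together from -0.30 and -0.34 to 0.40 and 0.46, and the line at matched depth runs from 0.04 to -0.01.

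Members also varied among themselves along their mitochondrial share. The 3088 members above 80% were set over the 2577 members at 50 to 60%, a contrast the 50% rule does not fix, although the share still orders the barcodes. Of 11845 genes tested, 63 (0.532%) were at least 2-fold higher and 1617 (13.7%) at least 2-fold lower above 80%, with a median of -0.36. Malat1 went from 18734 CPM at 50 to 60% to 8651 CPM at 80 to 90% and 6471 CPM above 90%, and Gm26917 from 51963 to 26231 and 18823 CPM. Gm42418, in contrast, went from 65217 to 78419 and 74084 CPM. The histone list had a median of -1.08, with 35 of 58 genes 2-fold lower, and the nuclear noncoding list one of -1.16, with 5 of 9; Xist had a ratio of -1.95. Ribosomal protein and oxidative phosphorylation genes had medians of 0.43 and 0.39, and Paneth cell genes one of 1.28, with 5 of 7 past 2-fold, among them Defa24 (1.84). Depth and set moved along as well: the median of non-mitochondrial UMIs was 1686 at 50 to 60% and 507 at 80 to 90%, and set 2 gave 37.2% and 67.3% of the barcodes. Within sets Malat1 was lower too, going from 12858 to 6291 CPM in set 1 and from 27083 to 10917 CPM in set 2. The part of depth in this contrast was not tested.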

How the data were processed

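The deposited values are whole-number UMI counts per gene and barcode, not normalized by the authors, who processed the reads with Cell Ranger 3.1.0, bcl2fastq 2.20.0 and STAR 2.7.3a per the submitters' processing notes; build, annotation, strand setting and barcode filter are not given in the sources used here. The files of both samples were identical, and were used once. Mitochondrial shares used genes whose symbol starts with mt-. Counts were summed over barcodes, scaled to counts per 1000000 non-mitochondrial UMIs (CPM) and compared as log2(CPM + 1), which understates the change of low genes; genes with fewer than 10 UMIs were left out. With 1 sample there is no test and no p-value. A gene was called at 2-fold. Named genes were the 15 highest and 15 lowest ratios among genes at 50 CPM or more with separate intervals and at least 1.5-fold the same way in both sets (281 and 89 genes met this). The members, the gene lists and the comparisons were chosen with earlier results of these data known; the depth ranges were added after seeing the data. Work was done in Python 3.11.15 with scipy 1.17.1 and pandas 2.3.3. The ratios were run on simulated UMI sums with known changes. That simulation held no differences in depth among barcodes, so it cannot speak to the effect of depth described above. Transcript features came from GENCODE M21, where 15827 of 15845 genes had a transcript.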

Additional observations from a re-analysis of the deposited data

Results flagged for a closer look

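Results were singled out here where the barcode sets moved in opposite directions, a difference that was not tested. The Paneth cell defensin gene Defa24 had a log2 ratio of members over the reference of 0.82 in set 1 (137 against 77.4 CPM) and of -0.83 in set 2 (243 against 432 CPM). Few barcodes carried it: 44 reference barcodes (1%) held 94.3% of the 24316 reference UMIs of this gene, and 1 of them held 4142. The goblet cell list had a median log2 ratio of 0.67 in set 1 and of -0.52 in set 2. At 500 to 5000 non-mitochondrial UMIs the values were -0.29 and 0.97, the other way round, and over all depths 44 reference barcodes held 66.8% of the reference UMIs of the list. Neither result has an explanation that was tested.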

How the results depend on the processing

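Over 16 alternatives, 23 of 30 named genes kept the direction of their ratio, as did 5 of the 14 lists whose median was at least 0.3 either way; the cause of a change was not tested. Genes 2-fold higher and lower in members, and the log2 ratio of Malat1, were 461, 233 and 0.69 with members over 60%, 277, 296 and 0.39 over 70%, 1015, 302 and 1.01 with the reference at 10% or less, and 1448, 259 and 1.29 with at least 500 genes and 1000 UMIs per barcode. They were 380, 426 and -0.35 at 500 to 5000 non-mitochondrial UMIs and 80, 470 and 0.006 as the mean of each barcode's own CPM. A pseudocount of 10 gave 156 and 47 genes, one of 0.1 gave 1710 and 756. Leaving nuclear and ribosomal RNA-like transcripts out of the denominator gave 1229, 188 and 1.17, centring 606, 242 and 0.92, set 1 alone 493, 217 and 0.91, set 2 alone 1528, 353 and 1.16, and leaving out the deepest 1% of barcodes 651, 227 and 0.90.

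At 500 to 5000 UMIs these called values also changed sign: Gm26917 (-0.015), Hist2h2bb (-0.60), Hist1h2bj (-0.15), Hist1h4h (-0.85), Hist1h3e (-0.67), Hist1h1d (-0.73), Ghrl (0.68), and the lists of histones (-0.45), nuclear noncoding RNAs (-0.24), mitochondrial import (0.10), mitochondrial ribosomal proteins (0.039), oxidative phosphorylation (0.13) and mesenchymal or endothelial genes (0.29). By set, 1 then 2, nuclear noncoding RNAs were at -0.60 and 0.47, mitochondrial import at 0.13 and -0.11, mitochondrial ribosomal proteins at 0.14 and -0.16, Hist2h2bb at -1.04 and 0.12 and Hist1h2bj at -0.51 and 0.31, so that the pooled change of sign was that of set 1. With members over 70%, nuclear noncoding RNAs (-0.027) and mitochondrial DNA expression (-0.013) did so. With mean CPM, nuclear noncoding RNAs (-0.078) and enterocyte genes (-0.029) did so, with no filter on genes the mesenchymal list (0.034), and in set 2 alone the goblet list (-0.52). Among lists with a median under 0.3, 31 further values changed sign, among them at 500 to 5000 UMIs G2/M (0.26), S phase (0.16) and heat shock (0.28), and with members over 70% stem cell genes (-0.21). The reference held 1259599 non-mitochondrial UMIs at 500 to 5000 UMIs, which limits low genes there. No paired analysis was possible because the files do not say which barcodes belong to which group. Shares of barcodes with a UMI are not reported.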
